A study of Homo sapiens with 6 samples.

Results

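The late transcriptional response of HCT116 cells to the small molecule C1-27 was described from nascent RNA. HCT116 is an established human colorectal carcinoma cell line with epithelial morphology. C1-27 is a covalent inhibitor of glutathione S-transferase omega 1 (GSTO1), an enzyme that uses glutathione to reduce disulfides and other oxidized substrates. The comparison set 1 culture exposed to 1 μM C1-27 for 24 h against 2 cultures exposed to 0.01% DMSO, the solvent, for 4 h, so that it used 3 of the 6 libraries of the study. The other 3 cultures, used only where named, received 1 μM C1-27 for 4 h, 10 μM C1-14 (an analogue of C1-27 used as an inactive control) for 4 h, or 10 nM GSTO1 siRNA (siGSTO1) for 24 h. All 6 cultures were labelled with bromouridine (BrU) for 0.5 h and harvested without a chase. Of the 22984 gene rows on the sense strand of each library, the 21471 of genes longer than 300 bp were kept. No 24 h DMSO culture was analysed here, and time in culture and exposure to the compound cannot be told apart here.

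In Bru-seq, RNA made during a short BrU pulse is captured with an antibody and sequenced, so that reads fall over introns and exons alike and the read density over a gene reflects recent transcription rather than the stored mRNA. Levels are given as RPKM, reads scaled for gene length and library depth, which can be compared between genes. RPKM is relative to the library, so that less transcription per cell and fewer cells transcribing a gene cannot be told apart. Thiol-reactive compounds are known to release the transcription factor NRF2 from KEAP1, and NRF2 then activates genes for glutathione, thioredoxin and NADPH supply. A second sensor, the SREBP factors held in the endoplasmic reticulum by SCAP and INSIG proteins, is released when membrane sterol is low and activates genes for sterol and fatty acid synthesis.

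Sense-strand counts were 18112861 and 32906297 in DMSO cultures 1 and 2 and 36841146 in the C1-27 24 h culture, and from 20214413 to 31020026 in the other 3. Antisense counts were 2.85% to 3.96% of all counts. The epithelial markers EPCAM (3.66 and 3.06 RPKM in DMSO cultures 1 and 2 and 3.33 RPKM in the C1-27 24 h culture), KRT8, KRT18 and KRT19 were transcribed, CDH1 was low at 0.406 RPKM in the C1-27 24 h culture, and the intestinal markers LGR5, ASCL2, CDH17, CEACAM5, CEACAM6 and VIL1 were at or near 0 in these 3 libraries. None of 12 markers of blood, liver, muscle, endothelial, glial and stromal cells passed a mean of 0.5 RPKM, and their highest value was 0.374 RPKM for PECAM1 in DMSO culture 1. The summed RPKM of the 12 was 0.515 and 0.289 in DMSO cultures 1 and 2 and 0.325 in the C1-27 24 h culture, and that of 11 epithelial and colorectal markers was 27.0, 17.4 and 14.1. The part of these differences in the results was not tested.

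The DMSO cultures stood apart from each other. Of 7825 genes compared, culture 2 exceeded culture 1 by 1.4-fold or more at 222 (2.84%) and fell short of it by that much at 1275 (16.3%). Over 7112 genes, the SD of the log2 ratio was 0.353 between the DMSO cultures, 0.259 between the C1-27 24 h culture and DMSO culture 2, 0.344 between it and DMSO culture 1, and 0.129 between DMSO culture 2 and the C1-27 4 h culture. DMSO culture 1 stood as far from siGSTO1 (SD 0.353) as from DMSO culture 2, and nearer to C1-27 4 h (0.314) and C1-14 (0.297). From siGSTO1 the SD was 0.330 to C1-27 24 h, 0.439 to DMSO culture 2, 0.414 to C1-27 4 h and 0.391 to C1-14. DMSO culture 1 was thus the nearest of the 4 h libraries to siGSTO1. At some genes DMSO culture 1 and siGSTO1 were alike and apart from the other libraries. CYP24A1, the vitamin D hydroxylase, had 513 counts in DMSO culture 1 and 434 in siGSTO1 against 4782 in DMSO culture 2, 4148 in C1-27 24 h, 4295 in C1-27 4 h and 3710 in C1-14. APOB had 0 counts in DMSO culture 1 and in siGSTO1, and from 41 to 117 in the other 4 libraries. CYP24A1 was chosen for this description after its values were seen. DMSO culture 1 and siGSTO1 therefore shared levels at these genes that the C1-27 24 h culture did not have. Some folds below are also given against each DMSO culture, and a fold given alone can hide a disagreement between them.

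The main fold divided the C1-27 24 h RPKM by the average RPKM of the DMSO pair, for the 7918 genes in which the treated value and that average had a mean over 0.5. By this measure 256 genes (3.23%) were past 1.4-fold upward and 276 (3.49%) downward, of which 30 and 37 reached 2-fold. Of these, 68 of the higher genes had a DMSO mean of 0.5 RPKM or less and 40 of the lower genes had 0.5 RPKM or less after C1-27, so that they passed through the group in which they were high. Against both DMSO cultures at once, 150 genes (1.89%) were past 1.4-fold upward and 71 (0.897%) downward. These shares are the background for the list counts below. The balance depended on the control, with 377 genes higher and 816 lower against DMSO culture 1 alone and 520 higher and 174 lower against DMSO culture 2 alone. With 1 treated culture a test can draw its spread only from the DMSO cultures. By the quasi-likelihood test of edgeR with Benjamini-Hochberg adjustment, fitted on the counts of 14431 genes, 23 genes (0.159%) rose and 17 (0.118%) fell at an adjusted p under 0.05. All 23 genes that rose and 14 of the 17 that fell were past 1.4-fold against each DMSO culture (RPPH1, CDH4 and SDK1 were not), and 12 of the 40 lay below the 0.5 RPKM limit. DESeq2, an alternative test, called 18 of the 40 and no other gene, and its adjusted p is given below for those it did not call. Below, "rose" and "fell" are used only for these 40 genes or for named contrasts in the same fit.

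**Figure D1:**
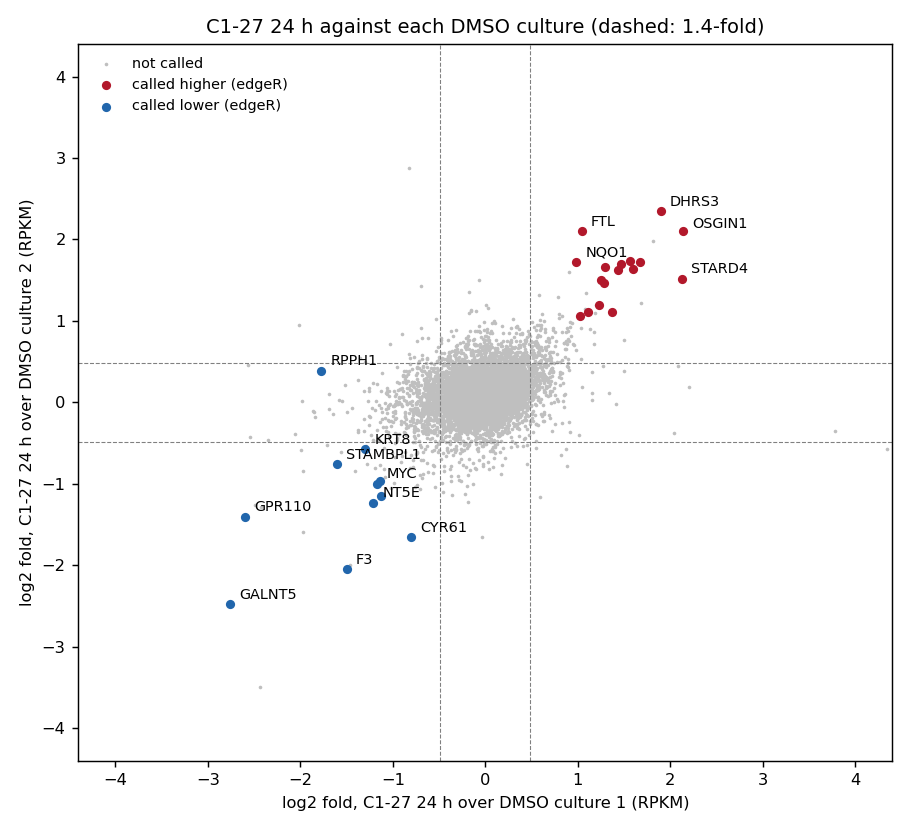
Log2 fold of the C1-27 24 h culture over DMSO culture 1 (horizontal axis) and over DMSO culture 2 (vertical axis) for genes with a mean RPKM over 0.5 and a value above 0 in all 3 libraries, 1 point per gene, with genes called by edgeR in red (higher) and blue (lower). The red genes lie past 1.4-fold on both axes, with OSGIN1, DHRS3 and STARD4 farthest out, and GALNT5 is lowest of the blue genes on the axis of culture 1, while RPPH1 is low on that axis and above 0 on the other.

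To show the sequences upstream of genes that moved, promoters were taken from RefSeq (GRCh38.p14, 250 bases before to 50 bases after the gene start). They are printed 5′ to 3′ on the strand of the gene for 3 genes of lipid synthesis and 2 genes of the antioxidant response that rose. Sites outside these windows were not searched, and a match inside them is not shown to be a bound site. Capitals mark matches on either strand to motifs chosen for each gene. In the 3 lipid genes these are matches to CCAAT, bound by NF-Y, and in INSIG1 also to the E-box CACGTG. In OSGIN1 and NQO1 they are matches to the core of the antioxidant response element in its form TGAGNNNGC. Other matches were left in small letters.
INSIG1 promoter, GRCh38.p14 chr7:155297628-155297927 (+ strand): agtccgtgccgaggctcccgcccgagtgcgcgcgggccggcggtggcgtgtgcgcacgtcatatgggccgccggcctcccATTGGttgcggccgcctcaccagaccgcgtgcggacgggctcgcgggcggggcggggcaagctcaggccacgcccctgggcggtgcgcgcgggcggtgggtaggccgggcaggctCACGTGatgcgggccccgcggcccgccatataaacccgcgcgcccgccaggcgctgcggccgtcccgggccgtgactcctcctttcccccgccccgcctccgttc
SCD promoter, GRCh38.p14 chr10:100346983-100347282 (+ strand): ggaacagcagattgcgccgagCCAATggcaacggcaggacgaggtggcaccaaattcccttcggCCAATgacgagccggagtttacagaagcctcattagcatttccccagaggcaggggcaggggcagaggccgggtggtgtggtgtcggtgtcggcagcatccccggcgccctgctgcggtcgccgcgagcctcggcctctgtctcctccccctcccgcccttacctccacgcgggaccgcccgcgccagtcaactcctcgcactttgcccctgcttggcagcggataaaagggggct
MSMO1 promoter, GRCh38.p14 chr4:165327419-165327718 (+ strand): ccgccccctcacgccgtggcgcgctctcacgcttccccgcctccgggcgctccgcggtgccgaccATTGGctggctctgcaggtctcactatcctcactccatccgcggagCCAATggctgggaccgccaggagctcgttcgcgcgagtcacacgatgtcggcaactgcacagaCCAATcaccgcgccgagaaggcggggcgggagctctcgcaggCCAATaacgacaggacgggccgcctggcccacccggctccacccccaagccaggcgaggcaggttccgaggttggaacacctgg
OSGIN1 promoter, GRCh38.p14 chr16:83952990-83953289 (+ strand): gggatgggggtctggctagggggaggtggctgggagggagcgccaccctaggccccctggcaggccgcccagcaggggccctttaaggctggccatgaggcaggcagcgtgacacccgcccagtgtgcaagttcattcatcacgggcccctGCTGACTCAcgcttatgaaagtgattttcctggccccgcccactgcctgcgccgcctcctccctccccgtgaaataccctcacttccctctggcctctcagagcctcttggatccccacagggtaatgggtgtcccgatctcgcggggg
NQO1 promoter, GRCh38.p14 chr16:69726511-69726810 (- strand): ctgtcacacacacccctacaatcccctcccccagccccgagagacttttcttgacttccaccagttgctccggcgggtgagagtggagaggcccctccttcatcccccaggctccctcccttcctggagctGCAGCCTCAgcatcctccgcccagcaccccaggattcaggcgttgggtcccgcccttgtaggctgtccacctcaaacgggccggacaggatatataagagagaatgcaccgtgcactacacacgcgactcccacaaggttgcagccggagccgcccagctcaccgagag
The INSIG1 window held 1 CCAAT match 170 bases before the start and 1 E-box 55 bases before it. SCD had 2 CCAAT matches, 229 and 186 bases before the start, and MSMO1 had 4, from 185 to 34 bases before it. One antioxidant response core was found 99 bases before the start of OSGIN1 and 119 bases before that of NQO1. The same core, left unmarked, also occurs in the INSIG1 and MSMO1 windows, so that it was not particular to the antioxidant genes. CCAAT was present in 25 of 47 promoters (53.2%) of the sterol and fatty acid lists described below, with 34 of 43 genes matched, against 34.6% of all 35116 promoters and 36.0% of the 8187 promoters of genes that passed the RPKM limit. For the NRF2 and glutathione lists, 21 of 27 genes matched 31 promoters, of which 9 (29.0%) held TGAGNNNGC and 6 (19.4%) held TGACNNNGC, against 20.8% and 14.8% for genes that passed the limit. The E-box was in 4 of the 47 lipid promoters (8.51%), against 10.1% for genes that passed the limit. The letters TCACNCCAC, like the sterol response element, were in 2 of the 47 lipid promoters and in 1.13% of all promoters. These matches describe the sequences only, and several genes have more than 1 promoter in the table. The entries for SLC7A11, FTH1, CYR61 and GALNT5 were missing.

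Genes of sterol and fatty acid synthesis were higher after 24 h of C1-27. Over 3 lists of cholesterol synthesis, sterol sensing and transport, and fatty acid and triglyceride synthesis, 43 genes passed the RPKM limit, 20 were past 1.4-fold upward and 1 downward, where 3.23% and 3.49% of all 7918 genes were. DHCR7, NSDHL, STARD4, FADS1 and LPIN1 had a DMSO mean of 0.5 RPKM or less and passed the limit through the treated culture. In the list of cholesterol synthesis, 10 of the 14 members that passed were past 1.4-fold upward and none downward. Of the 10, 9 were so against each DMSO culture (1.89% of all 7918 genes were), and all 14 were above the DMSO mean. The median log2 fold of the 14 was 0.74, beside 0.03 over all 7918 genes, and it was 0.72 and 0.72 against DMSO cultures 1 and 2. The 6 members below the limit were PMVK, HSD17B7, TM7SF2, MVK, MVD and LSS.

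FDFT1, squalene synthase, which commits the pathway to sterols, rose (2.89-fold, edgeR log2 fold 1.48 ± 0.25 SE, adjusted p = 8.52e-06). Its levels were 0.824 and 0.721 RPKM in DMSO cultures 1 and 2 and 2.23 RPKM in the C1-27 24 h culture, and 0.878 RPKM at 4 h of C1-27. MSMO1, a sterol demethylating oxidase, had 1.42 and 1.71 RPKM in DMSO cultures 1 and 2 and 3.68 RPKM in the C1-27 24 h culture and rose (2.35-fold, edgeR log2 fold 1.17 ± 0.27 SE, adjusted p = 0.00847). In both genes the DMSO values lay close together and the treated value stood above them. DHCR7, a reductase at the end of cholesterol synthesis, was at 0.436 and 0.462 RPKM in DMSO cultures 1 and 2 and 0.991 RPKM in the C1-27 24 h culture, or 2.21-fold, without passing the test (edgeR, adjusted p = 0.497). IDI1, isopentenyl diphosphate isomerase, was at 0.874 and 0.840 RPKM in DMSO and 1.77 RPKM after C1-27. HMGCS1, an early enzyme of the pathway, was 1.84-fold higher (edgeR, adjusted p = 0.185), and SQLE, squalene epoxidase, was 1.64-fold higher. FDPS, farnesyl diphosphate synthase, was at 1.03-fold, with 0.825-fold against DMSO culture 1 and 1.37-fold against culture 2, and was the lowest member. DESeq2 did not call MSMO1 (adjusted p = 0.261).

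Among the genes that sense and carry sterol, 5 of 14 members that passed the limit were past 1.4-fold upward and none downward. All 5 were so against each DMSO culture too, and the median log2 fold was 0.43. Over all 7918 genes, 3.23% were upward, 1.89% against each culture, and 3.49% downward. INSIG1, which retains SCAP in the endoplasmic reticulum, rose from 0.688 and 0.610 RPKM in the DMSO cultures to 2.03 RPKM (3.13-fold, edgeR log2 fold 1.60 ± 0.34 SE, adjusted p = 0.00154). STARD4, a cytosolic cholesterol carrier, rose from 0.381 and 0.581 RPKM to 1.66 RPKM (3.46-fold, edgeR log2 fold 1.72 ± 0.35 SE, adjusted p = 0.00107). SREBF2, which encodes SREBP-2, was at 0.874 and 0.850 RPKM and then 1.55 RPKM (1.8-fold, edgeR adjusted p = 0.138). NPC1, the lysosomal cholesterol transporter, was 1.5-fold higher. SREBF1, the gene of SREBP-1, depended on the control. It was 1.05-fold against DMSO culture 1 and 1.81-fold against culture 2, with 1.71 and 0.994 RPKM in DMSO cultures 1 and 2 and 1.8 RPKM in the C1-27 24 h culture. ABCA1 and ABCG1, exporters of cholesterol, lay below the limit. STARD4 was not called by DESeq2 (adjusted p = 0.0778). SCAP, INSIG2 and TMEM97 were at 0.954-fold, 0.936-fold and 0.962-fold.

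In the list of fatty acid and triglyceride synthesis, 15 of 24 members passed the limit, with a median log2 fold of 0.34. Over all 7918 genes, 3.23% were past 1.4-fold upward, 1.89% against each culture, and 3.49% downward. In this list 5 were past it upward, each also against both DMSO cultures, and 1 downward. SCD, the stearoyl-CoA desaturase, had the highest level of the 5, with 3.07 and 2.36 RPKM in DMSO cultures 1 and 2 and 7.50 RPKM in the C1-27 24 h culture (2.76-fold, edgeR log2 fold 1.42 ± 0.23 SE, adjusted p = 2.11e-06). FADS1, a desaturase of polyunsaturated fatty acids, went from 0.278 and 0.271 RPKM to 0.840 RPKM (3.06-fold, edgeR log2 fold 1.56 ± 0.39 SE, adjusted p = 0.0266). LPIN1, a phosphatidate phosphatase of triglyceride synthesis, went from 0.297 and 0.262 RPKM to 0.722 RPKM (2.59-fold, edgeR log2 fold 1.32 ± 0.27 SE, adjusted p = 0.0008). These 3 genes rose, while ACSL3, an acyl-CoA synthetase, and MID1IP1, a partner of acetyl-CoA carboxylase, were 1.74-fold and 1.53-fold higher without passing the test. FASN, fatty acid synthase, was at 1.02-fold, ACLY, ATP citrate lyase, at 1.09-fold and ACACA, acetyl-CoA carboxylase, at 1.34-fold. FASN was 0.830-fold and 1.31-fold against DMSO cultures 1 and 2. ELOVL1, a fatty acid elongase, was the member past 1.4-fold downward (0.711-fold), at 0.612-fold and 0.849-fold against cultures 1 and 2. FADS1 was not called by DESeq2 (adjusted p = 0.244). FADS2, a related desaturase, was below the limit with 0.0717 RPKM.

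**Figure D2:**
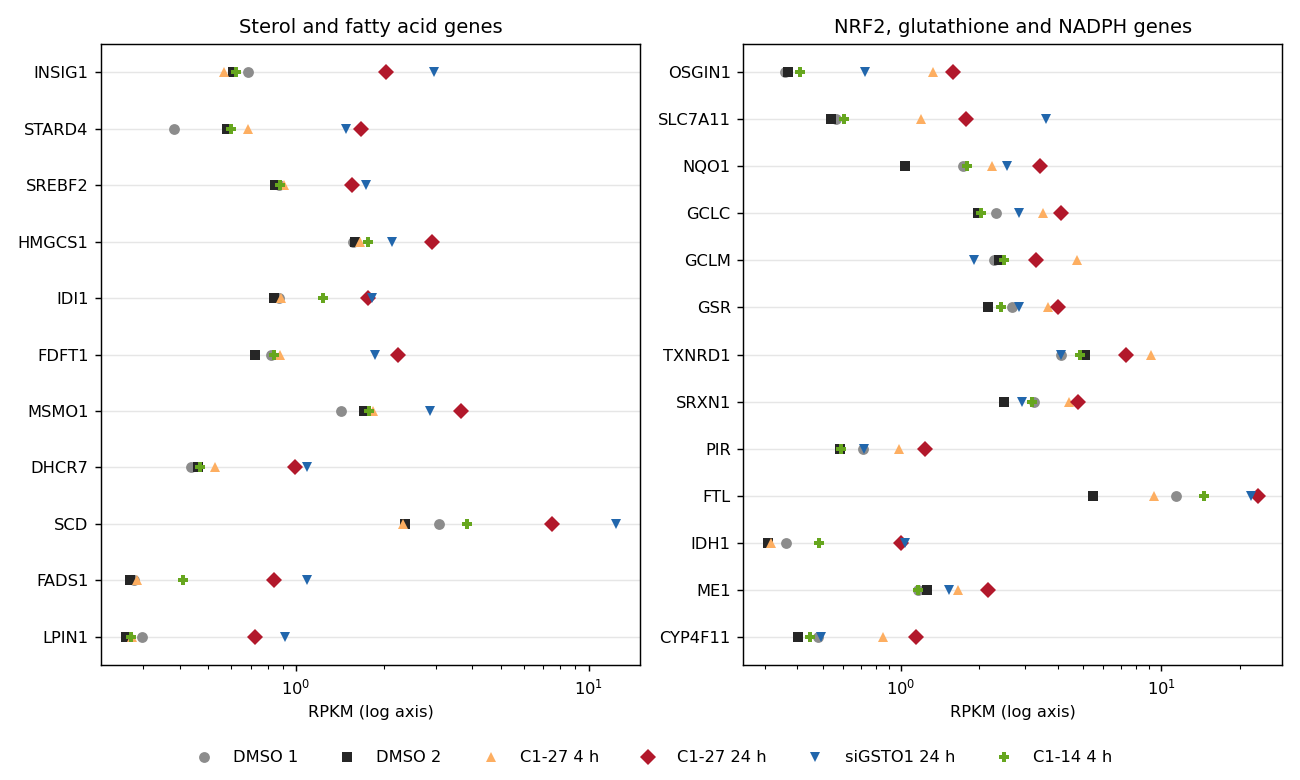
RPKM on a log axis for 11 genes of sterol and fatty acid metabolism (left) and 12 genes of the NRF2, glutathione and NADPH lists with CYP4F11 (right), 1 symbol per library. At each gene the C1-27 24 h diamond lies to the right of both DMSO symbols, and at OSGIN1, SLC7A11 and GCLC the C1-27 4 h triangle does too, while at INSIG1, SCD and LPIN1 the triangle lies with DMSO.

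Genes of the antioxidant response formed the other large group. In the list of NRF2 targets, 18 of 30 members passed the limit, 11 were past 1.4-fold upward and none downward (3.23% and 3.49% of all 7918 genes were), 9 of the 11 against each DMSO culture (1.89% of all were), and the median log2 fold was 0.59 (0.44 and 0.70 against DMSO cultures 1 and 2). OSGIN1, a growth inhibitor induced by oxidative stress, had the largest fold of all genes that rose and passed the limit, from 0.359 and 0.368 RPKM to 1.58 RPKM (4.35-fold, edgeR log2 fold 2.07 ± 0.37 SE, adjusted p = 5.19e-05). NQO1, a quinone reductase, was at 1.73 and 1.04 RPKM in DMSO cultures 1 and 2 and 3.42 RPKM in the C1-27 24 h culture (2.47-fold, edgeR log2 fold 1.26 ± 0.27 SE, adjusted p = 0.0015). FTL, the ferritin light chain, was at 11.4 and 5.49 RPKM in DMSO cultures 1 and 2 and 23.5 RPKM in the C1-27 24 h culture (2.79-fold, edgeR log2 fold 1.44 ± 0.30 SE, adjusted p = 0.00124), and its count can share reads with processed copies. The DMSO cultures differed at NQO1 and FTL, but both lay below the treated culture, and DESeq2 did not call NQO1 or FTL (adjusted p = 0.236 and 0.291). FTH1, the ferritin heavy chain, was 1.65-fold higher. PIR, pirin, was 1.91-fold higher, just outside the threshold (edgeR, adjusted p = 0.0516). UGDH, which makes UDP-glucuronate, SRXN1, sulfiredoxin, and TXNRD1, thioredoxin reductase, were 1.75-fold, 1.67-fold and 1.59-fold higher. The remaining members past 1.4-fold were ABCC2, an exporter of glutathione conjugates (1.53-fold), SQSTM1, the autophagy receptor p62 (1.48-fold), and BLVRB, a biliverdin reductase (1.46-fold). OSGIN1 and BLVRB passed the limit through the treated culture, with a DMSO mean of 0.5 RPKM or less. NFE2L2 and KEAP1, the genes of NRF2 and of its inhibitor, were at 0.968-fold and 1.02-fold. KEAP1 was 0.828-fold and 1.34-fold against DMSO cultures 1 and 2. HMOX1, heme oxygenase, was 1.55-fold higher at 0.501 RPKM and lay below the limit. Its count ratio over the pooled DMSO cultures, scaled by depth, was 1.57 (exact 95% interval 1.32 to 1.85). AKR1C1, AKR1C2, AKR1C3 and AKR1B10, aldo-keto reductases often used as NRF2 markers, and GPX2, a glutathione peroxidase, were at or under 0.0409 RPKM in the C1-27 24 h culture.

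In the glutathione list, 9 of 15 members passed the limit, with 4 past 1.4-fold upward and 1 downward. Over all 7918 genes, 3.23% and 3.49% were. SLC7A11, the cystine transporter that feeds glutathione synthesis, rose from 0.562 and 0.540 RPKM to 1.78 RPKM (3.24-fold, edgeR log2 fold 1.64 ± 0.23 SE, adjusted p = 7.54e-09). GCLC and GCLM, the subunits of glutamate-cysteine ligase, were 1.92-fold and 1.43-fold higher, with GCLC just outside the threshold (edgeR, adjusted p = 0.057). GSR, glutathione reductase, was 1.66-fold higher, with 2.68 and 2.17 RPKM in DMSO cultures 1 and 2 and 4.03 RPKM in the C1-27 24 h culture. GSS, glutathione synthetase, was at 1.04-fold. SLC3A2, the partner chain of SLC7A11, was at 0.835-fold, with 0.716-fold and 1.00-fold against cultures 1 and 2. GPX4, the lipid peroxide reductase, was the member past 1.4-fold downward (0.710-fold), and that value came from DMSO culture 1, since it was 0.556-fold against culture 1 and 0.982-fold against culture 2. CHAC1, which degrades glutathione, had 6, 6 and 31 counts in DMSO 1, DMSO 2 and C1-27 24 h and lay below the limit (3.34-fold, edgeR adjusted p = 0.996). Its count ratio over the pooled DMSO cultures, scaled by depth, was 3.60 (exact 95% interval 1.8 to 7.70).

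Of the 9 genes of NADPH supply that passed the limit, 3 were past 1.4-fold upward, each against both DMSO cultures, and none downward. IDH1, the cytosolic isocitrate dehydrogenase, rose from 0.363 and 0.308 RPKM to 0.999 RPKM (2.98-fold, edgeR log2 fold 1.53 ± 0.37 SE, adjusted p = 0.0182). IDH1 was not called by DESeq2 (adjusted p = 0.161). ME1, malic enzyme, was 1.78-fold higher (edgeR, adjusted p = 0.423). PGD, TKT and TALDO1, enzymes of the pentose phosphate pathway, were at 1.32-fold, 1.14-fold and 0.962-fold. TALDO1 was 0.791-fold and 1.23-fold against DMSO cultures 1 and 2. Among glutathione S-transferases, none of the 7 members that passed the limit was past 1.4-fold in either direction. GSTO1 itself, the protein target of C1-27 (chromosome 10, 106013952 to 106027222 in hg19, plus strand), was at 3.51 and 3.72 RPKM in DMSO cultures 1 and 2 and 4.21 RPKM in the C1-27 24 h culture (1.17-fold, edgeR adjusted p = 1). GSTO2, which starts 1408 bases downstream on the same strand, was at 3.81 and 3.90 RPKM in DMSO cultures 1 and 2 and 3.57 RPKM in the C1-27 24 h culture (0.925-fold). In the siGSTO1 culture, nascent GSTO1 was at 2.70 RPKM, a level that does not measure the mature mRNA that siRNA degrades. MGST1, GSTP1, MGST3, GSTK1 and GSTCD lay between 0.960-fold and 1.29-fold.

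Genes outside these pathways were among those with the largest rise, and DHRS3, CYP4F11, PHF21A and CREB3L2 had a DMSO mean under 0.5 RPKM. DHRS3, a retinal reductase, went from 0.335 and 0.245 RPKM to 1.25 RPKM (4.31-fold, edgeR log2 fold 2.06 ± 0.29 SE, adjusted p = 7.54e-09). RDH11, another retinal reductase, went from 1.44 and 1.44 RPKM to 3.11 RPKM (2.16-fold, edgeR log2 fold 1.06 ± 0.26 SE, adjusted p = 0.0248), with nearly equal DMSO values. ALDH1A3, which oxidizes retinal to retinoic acid, fell from 7.13 and 7.19 RPKM to 3.26 RPKM (0.455-fold, edgeR log2 fold -1.19 ± 0.27 SE, adjusted p = 0.0084). In all, 6 of 16 members of the retinoid list passed the limit, 3 past 1.4-fold upward, with CRABP2 the third, and 1 downward. Over all 7918 genes, 3.23% and 3.49% were. CYP4F11, a fatty acid hydroxylase, was at 0.479 and 0.403 RPKM in DMSO cultures 1 and 2 and 1.14 RPKM in the C1-27 24 h culture (2.59-fold, edgeR log2 fold 1.32 ± 0.34 SE, adjusted p = 0.0403). CYP4F3, a close paralogue with which reads may be shared, rose below the limit, from 5 and 25 counts to 160 (edgeR, log2 fold 2.91 ± 0.60 SE, adjusted p = 0.00106). PHF21A, a reader of unmethylated histone H3, went from 0.366 and 0.376 RPKM to 0.860 RPKM (2.32-fold, edgeR log2 fold 1.16 ± 0.23 SE, adjusted p = 0.0008), and CREB3L2, a membrane-bound transcription factor of the secretory pathway, from 0.389 and 0.377 RPKM to 0.789 RPKM (2.06-fold, edgeR log2 fold 0.99 ± 0.24 SE, adjusted p = 0.0183). RDH11, CYP4F11, CYP4F3 and CREB3L2 were not called by DESeq2 (adjusted p = 0.322, 0.285, 0.911 and 0.322).

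Besides CYP4F3, 5 genes below the RPKM limit rose, and they are named here after their values were seen. TUSC3, a subunit of the oligosaccharyltransferase complex, had 33 and 62 counts in DMSO and 378 after C1-27, with 101 at 4 h and 39 in siGSTO1 (edgeR, log2 fold 2.42, adjusted p = 0.00109). LINC00263 starts 8744 bases past the end of SCD on the same strand and went from 0.179 and 0.191 RPKM to 0.651 RPKM, so that its reads and transcription running past SCD cannot be told apart in these counts. C4orf34 (3.62-fold), the ubiquitin ligase HECW1 (2.55-fold) and the ubiquitin ligase TRIM2 (2.17-fold) were the others. TUSC3, LINC00263 and TRIM2 were not called by DESeq2 (adjusted p = 0.244, 0.385 and 0.322).

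The genes that fell included surface and secreted proteins. GALNT5, a transferase that starts O-linked glycans, had the largest fall among genes that passed the limit, from 1.03 and 0.847 RPKM to 0.152 RPKM (0.162-fold, edgeR log2 fold -2.67 ± 0.32 SE, adjusted p = 1.93e-12). GPR110, an adhesion receptor, fell to 0.350 RPKM from DMSO values that differed, 2.12 and 0.924 RPKM (0.230-fold, edgeR log2 fold -2.16 ± 0.29 SE, adjusted p = 9.72e-10). F3, tissue factor, the starter of blood coagulation, fell from 13.4 and 19.6 RPKM to 4.74 RPKM (0.288-fold, edgeR log2 fold -1.86 ± 0.27 SE, adjusted p = 3.33e-08). CYR61, a matrix protein now named CCN1, was at 4.62 and 8.33 RPKM in DMSO cultures 1 and 2 and 2.65 RPKM in the C1-27 24 h culture (0.408-fold, edgeR log2 fold -1.36 ± 0.35 SE, adjusted p = 0.0441). NT5E, the surface nucleotidase CD73 that makes adenosine, fell from 2.01 and 2.04 RPKM to 0.868 RPKM (0.429-fold, edgeR log2 fold -1.27 ± 0.26 SE, adjusted p = 0.000964), with nearly equal DMSO values. STAMBPL1, a deubiquitinase, fell from 1.12 and 0.623 RPKM to 0.368 RPKM (0.422-fold, edgeR log2 fold -1.29 ± 0.31 SE, adjusted p = 0.0182). LOC100499467, a long noncoding RNA gene, was at 0.481-fold (edgeR, adjusted p = 0.0209). KRT8, a keratin of simple epithelia whose reads can be shared with processed copies, was at 9.60 and 5.81 RPKM in DMSO cultures 1 and 2 and 3.90 RPKM in the C1-27 24 h culture (0.506-fold, edgeR log2 fold -1.03 ± 0.27 SE, adjusted p = 0.0441). Of these, GPR110, CYR61, STAMBPL1 and KRT8 were not called by DESeq2 (adjusted p = 1, 0.575, 0.314 and 0.622).

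F3 and CYR61 belong to the YAP-TEAD targets, a list of genes driven by the YAP coactivator in spread, adherent cells. Of its 25 members 18 passed the limit, none was past 1.4-fold upward and 9 were past it downward (3.49% of all 7918 genes were). Of the 9, 6 were so against each DMSO culture (0.897% of all were), and 3 (F3, CYR61 and NT5E) fell in the test. The median log2 fold was -0.51, and -0.33 and -0.62 against DMSO cultures 1 and 2. Against culture 2 all 18 were lower, and against culture 1, 15 were. DKK1, a secreted Wnt antagonist, had the highest level of the list, with 36.7 and 46.8 RPKM in DMSO cultures 1 and 2 and 22.4 RPKM in the C1-27 24 h culture (0.538-fold, edgeR adjusted p = 0.056). THBS1, thrombospondin, turned on the control. It was at 0.694 and 2.13 RPKM in DMSO cultures 1 and 2 and 0.679 RPKM in the C1-27 24 h culture, which is 0.978-fold against culture 1 and 0.319-fold against culture 2 (edgeR, adjusted p = 0.121). FOSL1, a subunit of AP-1, AMOTL2, a YAP-binding junction protein, MYOF, myoferlin, and NUAK2, a kinase, were at 0.619-fold, 0.652-fold, 0.686-fold and 0.678-fold. CTGF and ANKRD1, classical members of the list, were 0.387-fold and 0.188-fold but lay below the limit, at 0.244 and 0.0237 RPKM after C1-27. TEAD1, the DNA-binding partner of YAP, was at 0.891-fold. In the list of caveolae and actin genes, 24 of 30 members passed, none was past 1.4-fold upward and 4 were past it downward (PTRF, ACTB, ZYX and FLNA), but only PTRF, the caveolar coat protein, was so against each culture (0.592-fold and 0.711-fold). Among integrins and matrix genes, CD44, the hyaluronan receptor, and ITGA2 were 2 of 9 members that passed, at 0.605-fold and 0.646-fold. ITGA2 was 0.816-fold and 0.534-fold against cultures 1 and 2. The junction and epithelial list had 3 members past 1.4-fold downward of 16 that passed, the keratins KRT8, KRT18 and KRT19, with 0.475-fold and 0.808-fold for KRT18 against cultures 1 and 2. KRT8, KRT18 and KRT19 were also 3 of the 4 epithelial markers that passed the limit.

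**Figure D3:**
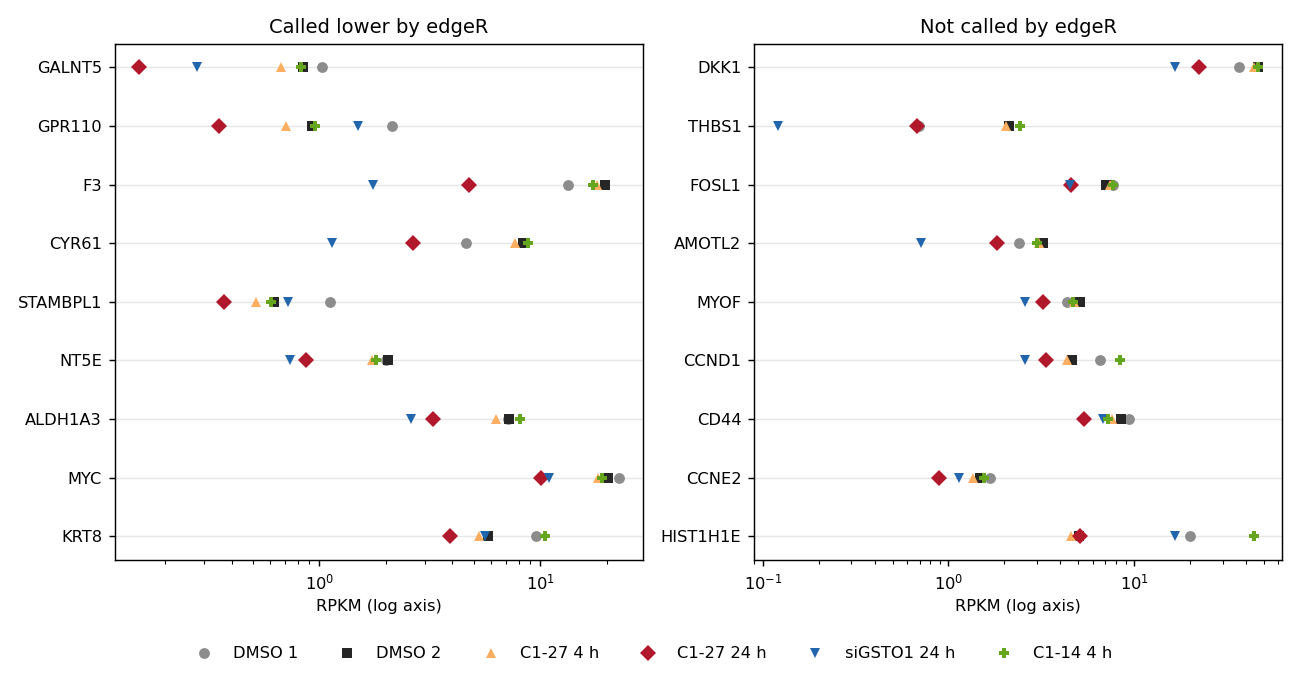
RPKM on a log axis for 9 genes that fell in the edgeR test (left) and 9 lower genes that did not pass it (right), 1 symbol per library. At GALNT5, F3 and NT5E the C1-27 24 h diamond lies left of both DMSO symbols and of the C1-27 4 h triangle, while at THBS1 and HIST1H1E it coincides with 1 of the DMSO symbols.

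Genes below the limit that fell were ETS1, ADAMTS17, RFTN1, SDK1, MYPN and CDH4, named here after their values were seen. ETS1, a transcription factor, went from 0.312 and 0.397 RPKM to 0.103 RPKM (edgeR, log2 fold -1.84, adjusted p = 2.11e-06). ADAMTS17, a secreted protease, went from 0.294 and 0.218 RPKM to 0.0979 RPKM, and RFTN1, raftlin, from 0.140 and 0.105 RPKM to 0.0491 RPKM. SDK1, an adhesion protein at 0.759-fold against culture 1 and 0.176-fold against culture 2, was at 83, 624 and 124 counts in DMSO 1, DMSO 2 and C1-27 24 h, and MYPN, a sarcomere protein, at 58, 303 and 55. CDH4, a cadherin, had 52, 1 and 3 counts, so that the call came from DMSO culture 1 and no fall was seen against culture 2. The same held for RPPH1, the RNA of ribonuclease P, with 172 and 38.5 RPKM in DMSO and 50.3 RPKM after C1-27, which is 0.293-fold and 1.31-fold against cultures 1 and 2. RFTN1, SDK1, MYPN, CDH4 and RPPH1 were not called by DESeq2 (adjusted p = 0.0893, 1, 0.911, 1 and 1).

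In the lists of cyclins, kinases and MYC, DNA replication and mitosis, MYC was the 1 gene that fell. MYC, a transcription factor of growth and division, fell from 22.8 and 20.2 RPKM to 10.1 RPKM (0.471-fold, edgeR log2 fold -1.14 ± 0.25 SE, adjusted p = 0.00453). CCND1, cyclin D1, was at 6.55 and 4.62 RPKM in DMSO cultures 1 and 2 and 3.36 RPKM in the C1-27 24 h culture (0.602-fold, edgeR adjusted p = 0.313), CCNE2 at 0.563-fold and CCNE1 at 1.23-fold. CDKN1A, the p21 inhibitor of cyclin-dependent kinases, was at 1.18 and 1.32 RPKM in DMSO cultures 1 and 2 and 2.22 RPKM in the C1-27 24 h culture (1.78-fold, edgeR adjusted p = 0.68). MYC, CCND1 and CCNE2 were the 3 members past 1.4-fold downward and CDKN1A the 1 past it upward among the 14 of the list of cyclins, kinases and MYC that passed. Among Wnt targets, 3 of 6 that passed were past 1.4-fold downward, MYC, CCND1 and DKK1, all of them shared with the lists above. Over all 7918 genes, 3.49% were past 1.4-fold downward and 3.23% upward. All 27 genes of DNA replication passed the limit and none was past 1.4-fold, with 23 below the DMSO mean, a lowest value of 0.719-fold for CDT1 and a median log2 fold of -0.16 (-0.28 and -0.04 against cultures 1 and 2). Of 25 mitosis genes that passed, CDC25C was past 1.4-fold (1.47-fold) and the median log2 fold was -0.04.

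The value of histone genes depended on the control culture. Of 27 that passed the limit, 17 were past 1.4-fold downward by the main measure (3.49% of all 7918 genes were). Against each DMSO culture, 2 were so, HIST2H2AC and HIST3H2A (0.897% of all genes were). Their counts in DMSO 1, DMSO 2 and C1-27 24 h were low, with 66, 78 and 49 for HIST2H2AC and 12, 16 and 6 for HIST3H2A. The median log2 fold was -1.26 against DMSO culture 1 and -0.04 against DMSO culture 2. The summed RPKM of the 30 genes of the list was 222.2 and 112.8 in DMSO cultures 1 and 2, 110.5 in C1-27 24 h, 119.2 in C1-27 4 h, 196.8 in siGSTO1 and 440.0 in C1-14. HIST1H1E, a linker histone, was at 20.0 and 5.04 RPKM in DMSO cultures 1 and 2 and 5.09 RPKM in the C1-27 24 h culture. Histone genes are short and close in sequence, so that their counts may share reads.

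For the ATF4 and integrated stress list, 34 of 39 members passed, with 6 past 1.4-fold upward and 1 downward (3.23% and 3.49% of all 7918 genes were) and a median log2 fold of 0.09. GDF15, PHGDH and PSPH, 3 of the 34, passed the limit through the treated culture, with a DMSO mean of 0.5 RPKM or less. SLC7A11, described above, was the member that rose. GDF15, a secreted stress cytokine, was at 0.458 and 0.409 RPKM in DMSO cultures 1 and 2 and 1.61 RPKM in the C1-27 24 h culture (3.71-fold, edgeR adjusted p = 0.0613). DDIT4, an inhibitor of mTORC1, was at 0.887 and 0.546 RPKM in DMSO cultures 1 and 2 and 1.65 RPKM in the C1-27 24 h culture (2.31-fold), DDIT3, the transcription factor CHOP, at 2.03-fold, SESN2 at 1.70-fold and PHGDH, of serine synthesis, at 1.43-fold. SLC7A5, an amino acid transporter, was at 0.712-fold. In the unfolded protein response list, 22 of 25 members passed and DNAJB9, XBP1 and HERPUD1 were past 1.4-fold upward (1.94-fold, 1.89-fold and 1.64-fold), each against both cultures. HSPA5, the chaperone BiP, was 0.919-fold against culture 1 and 1.71-fold against culture 2, and SDF2L1, the 1 member past 1.4-fold downward, was 0.341-fold and 1.01-fold. Among 18 heat shock genes that passed, BAG3 and DNAJB4, co-chaperones, were 1.55-fold and 1.42-fold and HSP90AA1 was 0.674-fold (0.546-fold and 0.881-fold against cultures 1 and 2). For p53 targets, 27 of 33 members passed, 5 were past 1.4-fold upward (GDF15, CDKN1A, SESN2, BTG2 and RRM2B) and 2 downward (PLK2 and PLK3), with a median log2 fold of 0.26. None of the 8 BCL2 family genes that passed was past 1.4-fold.

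Signalling lists held single members that differed. EGR1 and FOS, immediate-early factors, were 2.32-fold and 2.16-fold higher (edgeR, adjusted p = 0.0816 and 1), and JUNB and FOSL1, of the same AP-1 family, were at 0.498-fold and 0.619-fold, among 13 members that passed. Of these 13, 1 member passed the limit through the treated culture, with a DMSO mean of 0.5 RPKM or less. In the ERK and EGF receptor list, 15 passed and ETV5 was 1.72-fold higher. EREG, DUSP4, DUSP5 and ERRFI1 were past 1.4-fold downward. EREG was at 23.5 and 22.5 RPKM in DMSO cultures 1 and 2 and 14.7 RPKM in the C1-27 24 h culture. DUSP4 was 0.574-fold and 0.825-fold against cultures 1 and 2, and ERRFI1 0.863-fold and 0.576-fold. BMP4 was the 1 of 8 members of the BMP and TGF-beta list past 1.4-fold, at 0.616-fold (0.773-fold and 0.513-fold against cultures 1 and 2). The 5 NF-kappaB targets that passed stayed within 1.4-fold. HK2, hexokinase, was 0.660-fold, alone among 16 glycolysis genes that passed. Of 13 autophagy genes that passed, GABARAPL1 (1.88-fold), MAP1LC3B and SQSTM1 were past 1.4-fold upward, GABARAPL1 against each culture.

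**Figure D4:**
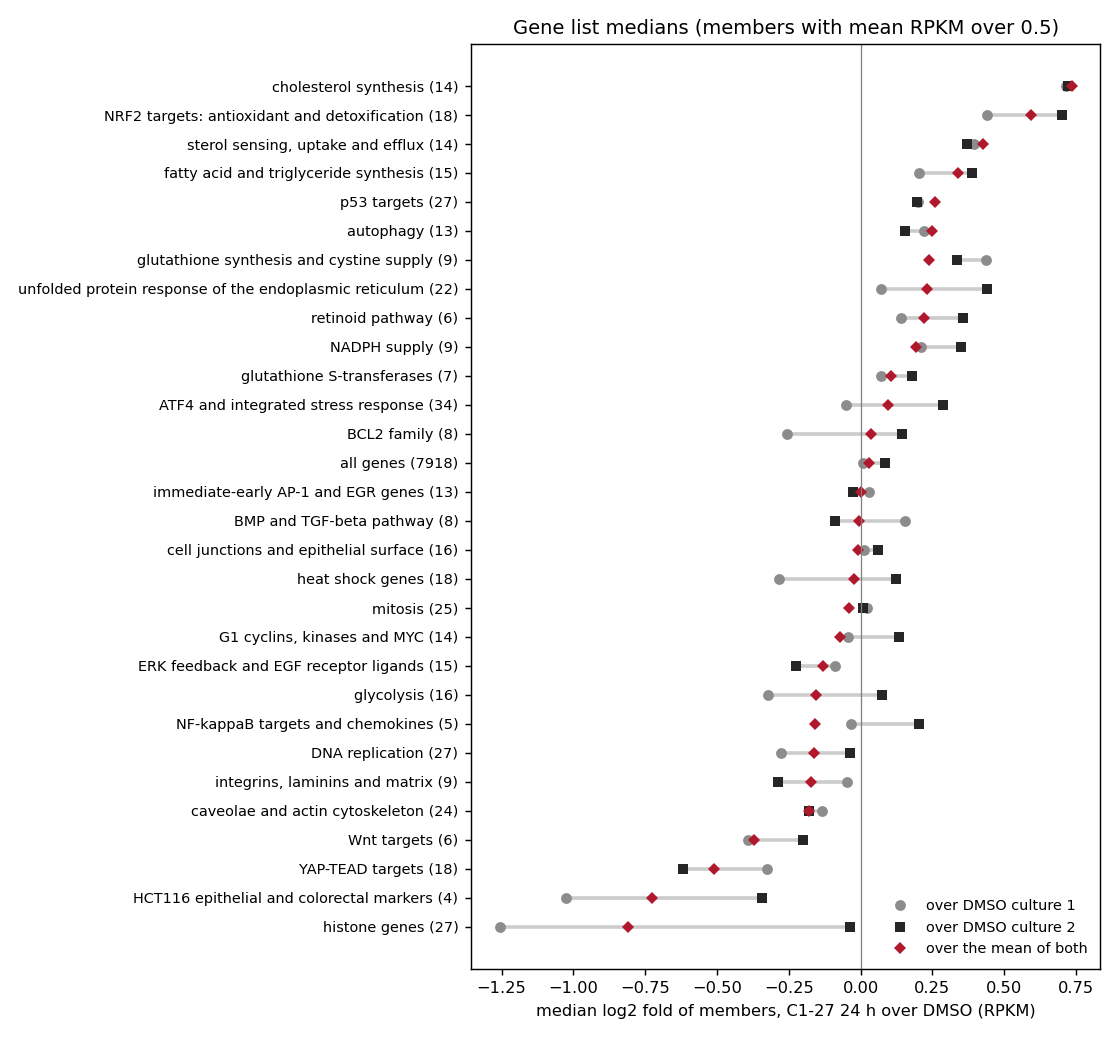
Median log2 fold of the C1-27 24 h culture over DMSO for the members of each gene list that passed the RPKM limit (number in brackets), against DMSO culture 1 (grey circles), DMSO culture 2 (black squares) and the mean of both (red diamonds). The cholesterol synthesis symbols lie together near 0.74, the YAP-TEAD symbols lie below 0 against both cultures, and the histone symbols span from -1.26 to -0.04.

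The folds moved with gene size against either control culture, in opposite directions. For genes of 0.3 to 5 kb (881 genes) the median log2 fold was -0.21 against culture 1 and 0.14 against culture 2, and for genes over 100 kb (1164 genes) it was 0.13 and 0.03. Whether this difference between the control cultures carries into single short genes such as HIST1H1E and RPPH1 was not tested.

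The contrast with the C1-27 4 h culture set the longer exposure against the shorter at the same dose of 1 μM. The quasi-likelihood test of edgeR put 6 genes (0.0416%) higher and 9 (0.0624%) lower at 24 h than at 4 h, at an adjusted p under 0.05. DHRS3 was at 0.191 RPKM at 4 h and 1.25 RPKM at 24 h (edgeR, log2 difference 2.63 ± 0.37 SE, adjusted p = 2.16e-08). INSIG1 was at 0.566 and 2.03 RPKM (edgeR, log2 difference 1.76 ± 0.41 SE, adjusted p = 0.0308), and SCD at 2.31 and 7.50 RPKM (edgeR, log2 difference 1.62 ± 0.28 SE, adjusted p = 4.67e-05). LPIN1, FDFT1 and TRIM2 completed the genes that were higher at 24 h, so that 4 of the 6 belong to the lipid lists. GALNT5 was at 0.672 RPKM at 4 h and 0.152 RPKM at 24 h (edgeR, log2 difference -2.22 ± 0.34 SE, adjusted p = 3.09e-07). F3 was at 18.1 and 4.74 RPKM, CYR61 at 7.69 and 2.65 RPKM, and THBS1 at 2.04 and 0.679 RPKM, all 3 lower at 24 h. ETS1, ADAMTS17, SDK1, ANO2 and TRPS1 were lower too, the last 3 at levels under 0.05 RPKM.

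DESeq2 called 2 genes higher and 3 lower at 24 h than at 4 h. No member of the NRF2, glutathione or NADPH lists was among the 15 of edgeR, where 0.0416% of all 14431 genes were called higher and 0.0624% lower. IDH1 was at 0.317 RPKM at 4 h and 0.999 RPKM at 24 h (edgeR, log2 difference 1.58 ± 0.45 SE, adjusted p = 0.253). FTL was at 9.38 and 23.5 RPKM (edgeR, log2 difference 1.25 ± 0.36 SE, adjusted p = 0.275). FDFT1 and LPIN1, which were called, had log2 differences of 1.27 and 1.31. OSGIN1 was at 1.33 RPKM at 4 h and 1.58 RPKM at 24 h (edgeR, log2 difference 0.17 ± 0.44 SE, adjusted p = 1). SLC7A11 was at 1.19 and 1.78 RPKM (edgeR, log2 difference 0.50 ± 0.28 SE, adjusted p = 1) and GCLC at 3.50 and 4.11 RPKM. GCLM and HMOX1 had their higher value at 4 h, with 4.74 against 3.31 RPKM and 0.727 against 0.501 RPKM. A difference that missed the threshold is not shown to be absent. Against the same DMSO cultures, the median log2 fold of cholesterol synthesis genes was 0.02 at 4 h and 0.74 at 24 h, that of NRF2 targets was 0.23 and 0.59, and that of YAP-TEAD targets was 0.08 and -0.51. Both times share their controls, and these medians are given side by side.

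**Figure D5:**
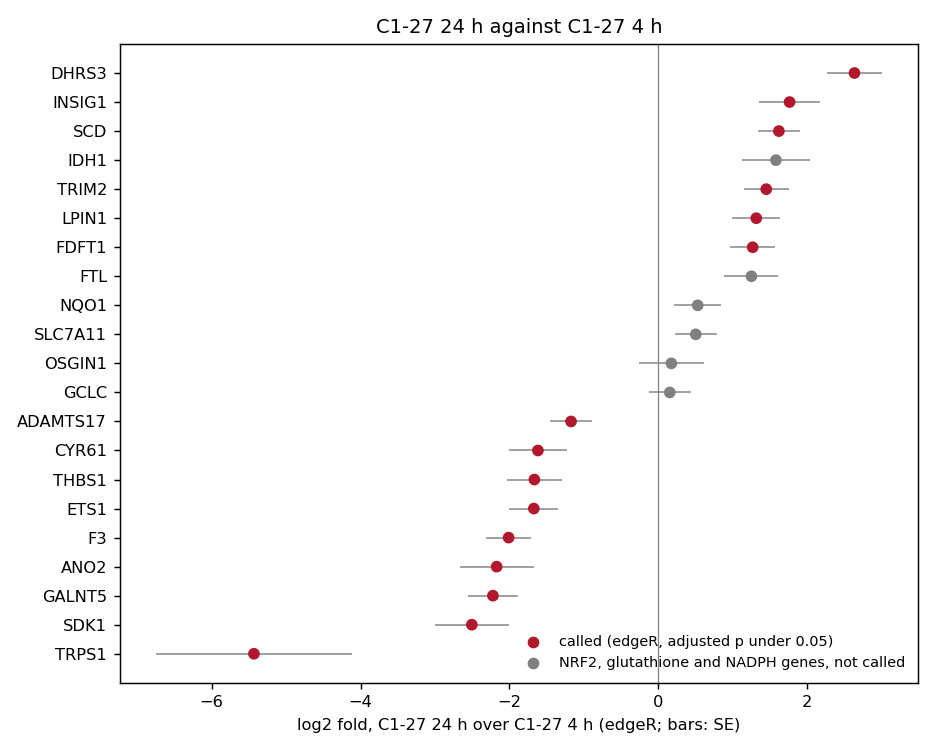
Log2 fold of C1-27 24 h over C1-27 4 h from edgeR, with bars of 1 SE, for the 15 genes called in this contrast (red) and for OSGIN1, SLC7A11, NQO1, GCLC, FTL and IDH1 (grey). The grey genes lie between 0.15 for GCLC and 1.58 for IDH1, and the red genes lie from -5.43 for TRPS1 to 2.63 for DHRS3.

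The contrast with the siGSTO1 culture set the inhibitor beside knockdown of its target at the same time of 24 h. At 34 genes (0.236%) the C1-27 24 h culture was higher and at 109 (0.755%) it was lower by the edgeR quasi-likelihood test, at an adjusted p under 0.05. Of the 34, 26 differed at least 1.4-fold the same way between DMSO culture 2 and DMSO culture 1, and of the 109, 50 did. In this contrast alone the division of the libraries described above and the treatments cannot be told apart at these genes. SOX5 and APOB, with 0 counts each in siGSTO1, SMAD7, THBS1 and TUSC3 had the largest differences upward, and IGFBP7, VEGFC, VGF, COL8A1 and CDH4 downward. VGF, a secreted neuropeptide precursor, had 2 counts in C1-27 24 h and 58 in siGSTO1, against 4 and 6 in DMSO. TUSC3 differed without such a gap between the DMSO cultures, with 378 counts in C1-27 24 h and 39 in siGSTO1. F3 was lower in siGSTO1, at 1.74 RPKM against 4.74 RPKM (edgeR, log2 difference 1.5 ± 0.30 SE, adjusted p = 0.000296). F3 is 1 of the 26 genes, with DMSO culture 2 at 1.46-fold of culture 1. CHAC1, DDIT4 and CDKN1A were higher in siGSTO1, with 1.97, 9.70 and 6.79 RPKM against 0.219, 1.65 and 2.22 RPKM (edgeR, adjusted p = 0.00748, 0.00266 and 0.00268). GPR110 was at 0.350 RPKM in C1-27 24 h and 1.49 RPKM in siGSTO1 (edgeR, log2 difference -2.03 ± 0.31 SE, adjusted p = 1.53e-07). GPR110, CHAC1 and DDIT4 are among the 50 genes, with DMSO culture 2 at 0.436-fold, 0.573-fold and 0.616-fold of culture 1. At these 3 genes and at F3 the contrast alone cannot tell the library division from the treatment. Levels in DMSO cultures 1 and 2 were 0.0832 and 0.0477 RPKM for CHAC1 and 13.4 and 19.6 RPKM for F3. Those of GPR110 and DDIT4 are given above, and the part of the division was not tested. At CDKN1A culture 2 was at 1.11-fold. DESeq2 called 3 genes higher and 19 lower in this contrast. INSIG1, SCD, FDFT1 and OSGIN1 gave adjusted p values of 0.998, 0.469, 0.998 and 0.328 in this contrast (edgeR). OSGIN1 was at 1.58 RPKM in C1-27 24 h and 0.726 RPKM in siGSTO1, and SCD at 7.50 and 12.4 RPKM. These missed thresholds do not show that a difference is absent. Side by side, over the shared DMSO controls, the median log2 folds in C1-27 24 h and siGSTO1 were 0.74 and 0.44 for cholesterol synthesis, 0.59 and 0.27 for NRF2 targets, 0.09 and 0.82 for the ATF4 list and -0.51 and -0.87 for YAP-TEAD targets.

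C1-14 was given at another dose and time, 10 μM for 4 h, and no comparison with C1-27 at 24 h was made. In the C1-14 culture INSIG1 was at 0.624 RPKM, FDFT1 at 0.844, OSGIN1 at 0.409, SLC7A11 at 0.603, F3 at 17.4 and GALNT5 at 0.822 RPKM, beside 2.03, 2.23, 1.58, 1.78, 4.74 and 0.152 RPKM in C1-27 at 24 h. Other named genes were above the DMSO mean in C1-14. FTH1 was at 15.2 RPKM (1.70-fold), FTL at 14.6 (1.73-fold) and SCD at 3.84 (1.42-fold). FADS1 was at 0.411 RPKM (1.49-fold) and IDH1 at 0.482 (1.44-fold). Both sets of genes were picked, and the rest were not counted for this culture.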

How the data were processed

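Nascent RNA labelled with BrU in 6 HCT116 cultures was sequenced by the authors, and the submitters' processing notes name CASAVA 1.8.2, Bowtie 0.12.8, TopHat 1.4.1, bedtools 2.16.2 and the build hg19, with the gene annotation not given in the sources used here. The authors deposited, per gene and strand, estimated counts that need not be whole and were not normalized, a signal (count per base of the gene, not used in tests), and RPKM values that divide by gene length and mapped reads. Total depth was 23388424 to 46017051 mapped reads per library, worked out from counts and RPKM, and intervals cover counting error only. Near-identical genes could share reads.

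Sense rows of genes over 300 bp were used. Folds were the treated RPKM over the mean of both DMSO RPKM values, without a pseudocount, for genes with a mean of treated and control RPKM above 0.5, at a threshold of 1.4-fold. Intervals of ratios were exact (Clopper-Pearson, 95%) and belong to ratios of counts scaled by depth, with the DMSO counts pooled. Counts were rounded and tested with edgeR 4.0.16 (quasi-likelihood F test, TMM factors) in R 4.3.3 for the 14431 genes with at least 10 counts in at least 2 libraries, in 1 fit of 5 groups and 6 libraries with Benjamini-Hochberg adjustment over all genes. Its 1 residual degree of freedom is the difference between the controls, so the treated library is assumed to vary like them. edgeR estimated an infinite prior degree of freedom and a common dispersion of 0.0381, which leaves no spread of its own to each gene. Nothing in the labels says more of the DMSO samples than that they are separate samples, and p-values measure only their spread. The fits were tested on simulated data with known changes, and DESeq2 1.42.0 was an alternative. DMSO replicate numbers have no partner in the treated groups.

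Named genes were GSTO1 and GSTO2, up to 15 per direction with the largest folds among genes past 1.4-fold against each DMSO culture and called by edgeR, up to 5 per list, members of a list that did not pass where the list is described, a fixed set of stress, lipid and cell cycle genes, and 5 per direction in each further contrast. The 30 gene lists were written from general knowledge, and the comparison, members and lists were chosen with earlier results of these data known. Alternatives varied the control culture, scaling, filters, pseudocount, threshold and test. No set test was run. Some members counted in the lists are not reported here by name.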

Additional observations from a re-analysis of the deposited data

Results flagged for a closer look

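The C1-27 24 h and C1-27 4 h libraries differed in level at 15 genes, by edgeR's test of that difference (adjusted p under 0.05). Time in culture and the effect of C1-27 cannot be told apart in it. On the log2 scale, 24 h minus 4 h, the differences upward were 2.63 for DHRS3, 1.76 for INSIG1, 1.62 for SCD, 1.45 for TRIM2, 1.31 for LPIN1 and 1.27 for FDFT1. Downward they were -2.22 for GALNT5, -2.01 for F3, -1.67 for ETS1, -1.67 for THBS1, -1.62 for CYR61, -1.17 for ADAMTS17, -2.51 for SDK1, -2.17 for ANO2 and -5.43 for TRPS1.

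TRPS1, a transcription factor, had 1 count at 24 h and 40 at 4 h, a ratio of 0.0210 with an exact 95% interval of 0.000519 to 0.124. It had 11 and 2 counts in DMSO cultures 1 and 2. These counts are not scaled for depth, which was 23388424 mapped reads in DMSO culture 1 and 38683169 in C1-27 4 h. The fitted log2 difference of TRPS1 depends on the prior count that edgeR adds. ANO2, a chloride channel gene, had 31 counts in DMSO culture 1, 673 in culture 2, 144 at 24 h and 517 at 4 h. SDK1 had 83, 624, 124 and 561 in the same order. At ANO2, SDK1 and THBS1 the C1-27 24 h level was nearer to DMSO culture 1 and the 4 h level nearer to DMSO culture 2. The cause was not tested.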

How the results depend on the processing

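Against DMSO culture 2 alone, 520 genes were at least 1.4-fold higher and 174 lower, and against DMSO culture 1 alone, 377 and 816, so the numbers without 1 control replicate ranged from 377 to 520 and from 174 to 816. The share of higher genes among all past 1.4-fold was 48.1% with both cultures, 74.9% without culture 1, 31.6% without culture 2, 34.9% with TMM factors and 31.1% with DESeq2 size factors. DESeq2 size factors left 169 higher genes. Without an RPKM filter 2800 and 2470 genes passed, with a mean RPKM above 1, 116 and 170, and at 2-fold 30 and 37. DESeq2 in place of edgeR called 10 genes up and 8 down against DMSO, all 18 among the 40 of edgeR, 2 up and 3 down against C1-27 4 h, and 3 up and 19 down against siGSTO1. RLE factors, a lower count filter, a fit of the 3 libraries and a fit without C1-14 called 41, 38, 38 and 43 genes against DMSO, of which 36, 34, 36 and 38 were among the 40. Without DMSO culture 1, the folds of RPPH1, SDF2L1 and HIST1H1E turned to 1.31, 1.01 and 1.01, and without culture 2 they were 0.293, 0.341 and 0.254. The cause was not tested. No paired analysis was possible because only the DMSO group has replicate numbers, so the groups compared share fewer than 2.

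With 1 treated library and 2 controls, no value of this comparison has a treated replicate. Genes under about 0.5 RPKM rest on few reads per base. CHAC1, with 31 treated counts, has an interval from 1.8 to 7.70 for its count ratio over the pooled DMSO cultures.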
